A study of Mus musculus with 4 samples.

Results

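The mouse orthologs of genes lost in the human 22q11.2 deletion were followed in single cells of the *Tbx1* lineage. They were chosen by name as a list of 33 symbols, with *Tbx1* itself left out, and all 33 were found among the 32285 genes of the count files. In people the deletion removes a single copy of a run of neighbouring genes, and its carriers can have defects of the cardiac outflow tract, thymus, parathyroids, palate and face. TBX1, a T-box transcription factor of the pharyngeal region, is the best studied of these genes. Its neighbours work in unrelated processes, among them DNA replication, histone deposition, microRNA processing, mitochondrial transport, protein turnover, adapter signalling and endothelial junctions, and several have been studied as modifiers of the deletion. KMT2D, the enzyme varied in this study, is a histone methyltransferase that acts at enhancers and is mutated in Kabuki syndrome.

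RNA was counted in EGFP-positive cells sorted from the dissected pharyngeal region and heart of embryos at E9.5, labelled outbred SwissWebster and described in the methods as kept on a mixed background. The cHet embryos were *Tbx1Cre*/+; *Kmt2d* F/+; GFP F/+ and the cKO embryos were *Tbx1Cre*/+; *Kmt2d* F/F; GFP F/+, so by genotype they differed in losing 1 or both copies of *Kmt2d* in cells that had expressed Cre. The somite ranges that the study lists for the pools overlapped between the genotypes but started lower in cHet in both replicates. The part of this stage difference in the genotype values was not tested. Each genotype had 2 libraries (n = 2). The Rep1 libraries came from pools of 4 embryos on a Next GEM kit, and the Rep2 libraries from pools of 3 on a GEM-X kit. In both genotypes Cre sits in the *Tbx1* locus and takes the place of a *Tbx1* copy, so all libraries were heterozygous for *Tbx1* while the orthologs kept both copies, and no wild-type library was among them. The reporter marks cells with a history of *Tbx1Cre* activity, whether or not *Tbx1* was on at E9.5, and embryos of a pool could not be separated.

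The libraries held 179454146 to 234726019 unique molecular identifiers (UMIs, each standing for 1 captured RNA molecule), and 33448 cells were kept, with medians of 17240.5 to 22972 UMIs per cell. The cHet Rep1 library stood apart, with 37093 barcodes against 9307 to 16775 in the others and 60.0% of its UMIs in the cells kept against 86.1 to 91.6%. In every other library the barcodes equal the cell total that the study gives, whereas those of cHet Rep1 exceed its total, also after the filter on genes. Cells kept shared 12 barcodes between the Rep1 libraries, 41 between the Rep2 libraries and 0 between libraries of different kits. Of 21 clusters, 14 carried at least 3 markers of a type, which gave 11 named types and 18450 named cells (55.2%), and a type name here stands for cells that resemble the type. The name mesenchyme rested on 3 markers, none among the leading genes of its larger cluster. The summed mesenchyme markers were higher in the unnamed cells than in the cells named mesenchyme in all 4 libraries, at 928.3 and 989.0 CPM against 868.3 and 897.5 in cHet and cKO of Rep1, and at 1410.9 and 1474.0 against 1269.7 and 1290.1 in those of Rep2. The 8 markers of the anterior second heart field summed higher in cardiac muscle than in the cells named for that field in all 4 libraries. In Rep1 they were at 1634.4 and 1392.9 CPM against 997.6 and 868.1 in cHet and cKO. In Rep2 they were at 2774.7 and 2885.5 against 1541.5 and 1659.4. The smallest group was cardiac muscle in cKO Rep1, with 44 cells. The remaining 7 clusters were pooled as unnamed cells, and they were led by genes such as *Galntl6*, *Ptchd4*, *Cyp26a1*, *Foxd2os*, *Vtn*, *Pax3* and *Barx1*. *Kmt2d* itself was measured at 17.4 and 23.9 UMIs per 1000000 (CPM) in cHet Rep1 and Rep2 and at 15.2 and 21.0 in cKO, and a 3′ count does not show whether the floxed part was deleted. *Tbx1* was at 78.0 and 65.8 CPM in cHet and at 75.2 and 60.2 in cKO.

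In the mouse all 33 orthologs lie on chromosome 16, between positions 17280351 and 18970309 of GRCm38 (GENCODE M21). *Tbx1* (18580979 to 18590671, minus strand) sits among them, with 27 to its left and 6 to its right. The genes were densely packed. For 6 of them another coding gene overlapped on the same strand (*Dgcr2*, *Ranbp1*, *Dgcr8*, *Gnb1l*, *Gp1bb* and *Hira*), so their counts may hold or lack reads of that neighbour. A further feature was that 12 of the 33 formed 6 head-to-head pairs on opposite strands, with start sites 53 bases apart for *Ranbp1* and *Trmt2a*, 75 for *Dgcr2* and *Tssk2*, 79 for *Tango2* and *Arvcf*, 175 for *Mrpl40* and *Hira*, 208 for *Cdc45* and *Ufd1*, and 328 for *Pi4ka* and *Snap29*. These distances rest on the outer gene bounds of GENCODE. By those bounds the pairs of *Ranbp1*, *Cdc45* and *Pi4ka* overlap with their partners at the 5′ ends by about that distance. The other 3 pairs are separated by it. The RefSeq starts used below instead separate *Ranbp1* from *Trmt2a* and *Cdc45* from *Ufd1*. The *Pi4ka* starts of RefSeq lie on either side of that of *Snap29*. The RefSeq window of *Dgcr2* (17891679 to 17891978) lies far from that of *Tssk2* (17898387 to 17898686). The share of all genes in such pairs was not counted.

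Promoter windows from 250 bases before to 50 after the annotated start were held by RefSeq (GRCm38.p6) for 32 of the 33 genes, *Slc7a4* being the exception, and 3 of them are printed. The *Cdc45* window (chr16:18811923-18812222, minus strand) is shown because *Cdc45* was the 1 ortholog past a 1.5-fold difference between cells called S and G2/M. The *Ranbp1* window (chr16:18248645-18248944, minus strand) is shown because it held letters of 3 of the searched motifs. The first *Arvcf* window (chr16:18347932-18348231, plus strand) is shown because it covers the start sites of both *Arvcf* and *Tango2*. Capitals mark CCAAT or its reverse complement ATTGG, the NRF1 core GCATGCGC and the E2F letters TTTCCCGC.
*Cdc45*: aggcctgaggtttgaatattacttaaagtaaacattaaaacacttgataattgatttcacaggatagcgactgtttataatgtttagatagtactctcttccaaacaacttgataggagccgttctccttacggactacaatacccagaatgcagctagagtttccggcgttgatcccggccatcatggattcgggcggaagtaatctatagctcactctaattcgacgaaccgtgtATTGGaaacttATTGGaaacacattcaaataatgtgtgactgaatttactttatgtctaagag
*Ranbp1*: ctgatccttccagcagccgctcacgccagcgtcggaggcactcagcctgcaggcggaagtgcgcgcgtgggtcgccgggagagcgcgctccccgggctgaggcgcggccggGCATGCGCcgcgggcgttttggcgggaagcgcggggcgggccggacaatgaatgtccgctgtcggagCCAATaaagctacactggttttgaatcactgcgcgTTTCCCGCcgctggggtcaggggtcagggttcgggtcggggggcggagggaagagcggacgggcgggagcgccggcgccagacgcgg
*Arvcf*: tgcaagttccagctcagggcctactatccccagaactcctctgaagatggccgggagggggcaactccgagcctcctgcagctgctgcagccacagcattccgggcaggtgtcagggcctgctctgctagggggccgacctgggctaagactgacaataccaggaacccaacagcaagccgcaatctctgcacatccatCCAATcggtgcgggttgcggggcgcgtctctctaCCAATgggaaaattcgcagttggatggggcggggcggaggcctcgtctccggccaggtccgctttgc
Both strands of each window were searched. The letters TTTCCCGC were in 2 of the 32 first windows (6.25%, *Ranbp1* and *Trmt2a*, which share most of their window) and in 1.07% of 32851 promoter windows of the genome, and TTTGGCGC was in 0 of the 32 and 0.514% of all. The NRF1 core was in 4 (12.5%, with *Med15* and *Dgcr6*) against 2.71%, the ETS letters CCGGAAG in 7 (21.9%) against 8.86%, and CCAAT in 13 (40.6%) against 37.4%. The *Cdc45* window held CCAAT at 2 places and neither E2F string. Such a match describes the letters of the window only.

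Levels are given as CPM, the UMIs of a gene summed over the cells of a type in a library and divided by all UMIs of those cells, and the types are set side by side without a test, because the clusters come from the same cells. The orthologs were not used to build the clusters. Together they held 1386464 of the 693289273 UMIs of the cells kept (0.200%). Of the 33, 20 were at 5 CPM or more in every library of every named type, as were 38.4% of all genes tested. Another 5 (*Cldn5*, *Prodh*, *Arvcf*, *Scarf2* and *Gnb1l*) passed 5 CPM in some types and were under it in at least 1 library of another, and 8 stayed under 3 CPM in every library. In the heat map of levels the broad genes form even bands, and the endothelial column of *Cldn5* is the single bright cell of an otherwise dark row.

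**Figure D1:**
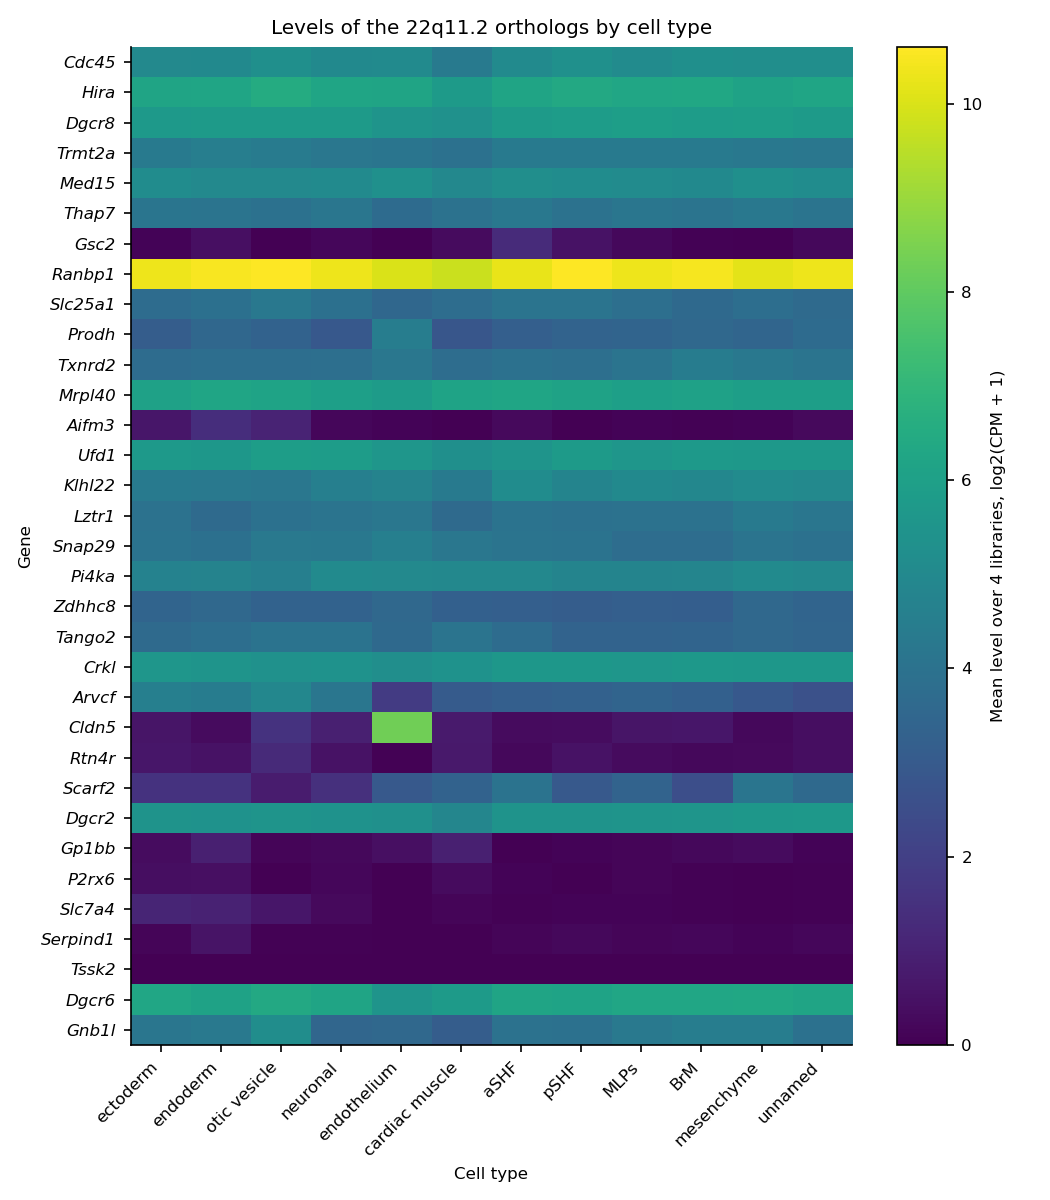
Mean level over the 4 libraries, as log2(CPM + 1), of the 33 orthologs (vertical axis, ordered by role) in 11 named cell types and the pooled unnamed cells (horizontal axis). The 20 broadly measured genes form even bands, *Cldn5* stands out in endothelium, and 8 genes stay dark throughout.

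Among the 20 broad genes the highest type was 1.30-fold (*Med15*) to 1.97-fold (*Klhl22*) above the lowest, with a median of 1.65, against a median of 1.71 over the 7735 genes that met the same level in every library. Cardiac muscle was the lowest type for 8 of the 20 (40%), against 35.6% of those 7735. For most of the broad genes, types next to each other in the order of levels overlapped in their libraries.

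Of the genes that act on DNA, chromatin and RNA, *Cdc45*, a subunit of the replicative helicase, had means from 19.8 CPM in cardiac muscle to 38.8 in the posterior second heart field (pSHF). *Hira*, a chaperone that deposits histone H3.3, ran from 53.4 in cardiac muscle to 91.4 in the otic vesicle. *Dgcr8*, the RNA-binding partner of Drosha in microRNA processing, ran from 39.7 in cardiac muscle to 60.5 in the multilineage progenitors (MLPs). These had their lowest mean in cardiac muscle. *Trmt2a*, a tRNA methyltransferase, was at 14.4 to 22.2 CPM, *Med15*, a Mediator subunit, at 30.0 to 39.2, and *Thap7*, a zinc finger protein that binds chromatin, at 12.2 to 18.0. *Ranbp1*, a regulator of the Ran GTPase cycle, was at 857 CPM in cardiac muscle and 1554 in the pSHF. It alone gave 63.7% of the UMIs of the orthologs. *Gsc2*, a goosecoid-like homeobox gene, was near the limit of detection but not evenly so. In the anterior second heart field (aSHF) it had 15 and 12 UMIs (1.77 and 1.66 CPM) in cHet and cKO of Rep1, and 10 and 12 UMIs (1.09 and 1.24 CPM) in those of Rep2. No library of another type passed the 0.705 CPM of the cKO Rep1 pSHF, so the measured aSHF values were above the rest. At 3 counts, the limit that a count of 0 allows, cKO Rep1 cardiac muscle would be at 2.54 CPM and cKO Rep1 ectoderm at 1.18. The Rep1 otic vesicle would be at 1.22 and 1.26. In these libraries a level within the aSHF range could have been missed at this depth. The Rep1 endoderm libraries held 1 UMI each, where 3 counts would be 1.67 and 1.89 CPM in cHet and cKO.

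Of the mitochondrial genes, the carrier *Slc25a1*, which exports citrate, had means of 10.7 CPM in endothelium to 18.2 in the otic vesicle. *Txnrd2*, a thioredoxin reductase, ran from 12.5 in ectoderm to 20.8 in the branchiomeric muscle progenitors (BrM), and *Mrpl40*, a ribosomal protein, from 56.1 in endothelium to 74.0 in endoderm. *Prodh*, the first enzyme of proline breakdown, had a clear high point in endothelium, with 21.0 and 22.6 CPM in cHet and cKO of Rep1 and 21.4 and 22.2 in those of Rep2. The next type was the BrM with a mean of 11.1, and the highest library outside endothelium was cKO Rep1 endoderm with 13.9. The 4 endothelial libraries were close to each other and above every library of every other type. The share of all genes with a type set apart in this way was not counted, here or for *Gsc2* and *Gnb1l*. *Aifm3*, of the apoptosis-inducing factor family, stayed under 2.3 CPM, with its highest mean, 1.63, in endoderm.

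The genes of protein turnover, membrane lipid and traffic were all broad. *Ufd1*, an adaptor of the p97 segregase, had means of 37.5 CPM in cardiac muscle to 58.3 in the otic vesicle. *Lztr1*, a CUL3 adaptor that turns over RAS proteins, ran from 11.7 in endoderm to 19.1 in mesenchyme. *Klhl22*, another CUL3 adaptor, had the widest range of the broad genes and was highest in the aSHF (34.5), mesenchyme (33.9) and MLPs (32.0) and lowest in the otic vesicle (17.5). *Snap29*, a SNARE protein, was highest in endothelium (mean 23.0, 18.5 to 26.8 over libraries). *Pi4ka*, a phosphatidylinositol kinase, was at 22.9 to 32.7 CPM, *Zdhhc8*, a palmitoyltransferase, at 7.74 to 11.1 and *Tango2* at 9.45 to 16, the last with its highest mean in cardiac muscle.

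Among the genes of signalling and the cell surface, *Cldn5*, *Arvcf* and *Scarf2* differed widely between types. *Cldn5*, a claudin of endothelial tight junctions, was measured in endothelium at 356 and 406 CPM (3283 and 3072 UMIs) in cHet and cKO of Rep1, and at 266 and 228 CPM (2947 and 2552 UMIs) in those of Rep2. In the other 10 named types its means were 0.164 to 1.94 CPM, and the highest single library was cHet Rep1 otic vesicle with 5.68 CPM (14 UMIs). That library also held 53.2 CPM of the 8 endothelial markers summed, against 23.9 to 26.6 in the other otic vesicle libraries and 2600 to 4092 in endothelium, and the part of other cells or free RNA in it was not tested. Endothelium was 57.6-fold above the median type for *Cldn5* after adding 5 CPM. A gene was called type-restricted where this ratio reached 4 and its libraries did not overlap with those of the median type, which held for *Cldn5* as the 1 such ortholog, against 6.19% of all genes tested.

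*Arvcf* and *Scarf2* split the epithelial and mesodermal types in opposite directions, a grouping that was chosen after the levels were seen. *Arvcf*, a catenin of the p120 family that binds cadherins, had means of 28.7 CPM in the otic vesicle, 22.8 in ectoderm and 21.1 in endoderm, and 14.4 to 34.6 over their 12 libraries. Its 28 libraries of mesodermal types (aSHF, pSHF, MLPs, BrM, mesenchyme, cardiac muscle and endothelium) held 1.97 to 11.7 CPM. Every epithelial library was above every mesodermal one, which was so for 1.17% of all genes tested, and endothelium was the lowest type, at 2.49 and 3.70 CPM in cHet and cKO of Rep1 and 2.25 and 1.97 in those of Rep2. Neuronal cells, at 12.7 to 21.3 CPM, overlapped with the lower epithelial libraries.

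*Scarf2*, a scavenger receptor family member, showed the reverse. Its means were 16.7 CPM in mesenchyme (14.8 to 18.7 over libraries) and 15.3 in the aSHF (11.9 to 18.4), and its mesodermal libraries started at 4.62 in the BrM. The epithelial libraries held 0 to 3.78 CPM, the 0 being the cKO Rep1 otic vesicle, where 3 counts would have been 1.26 CPM. Every mesodermal library was above every epithelial one, which was so for 0.189% of all genes tested. The split of the pair is plain in the plot of levels per library, where their points change places between the left and the right of the axis.

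**Figure D2:**
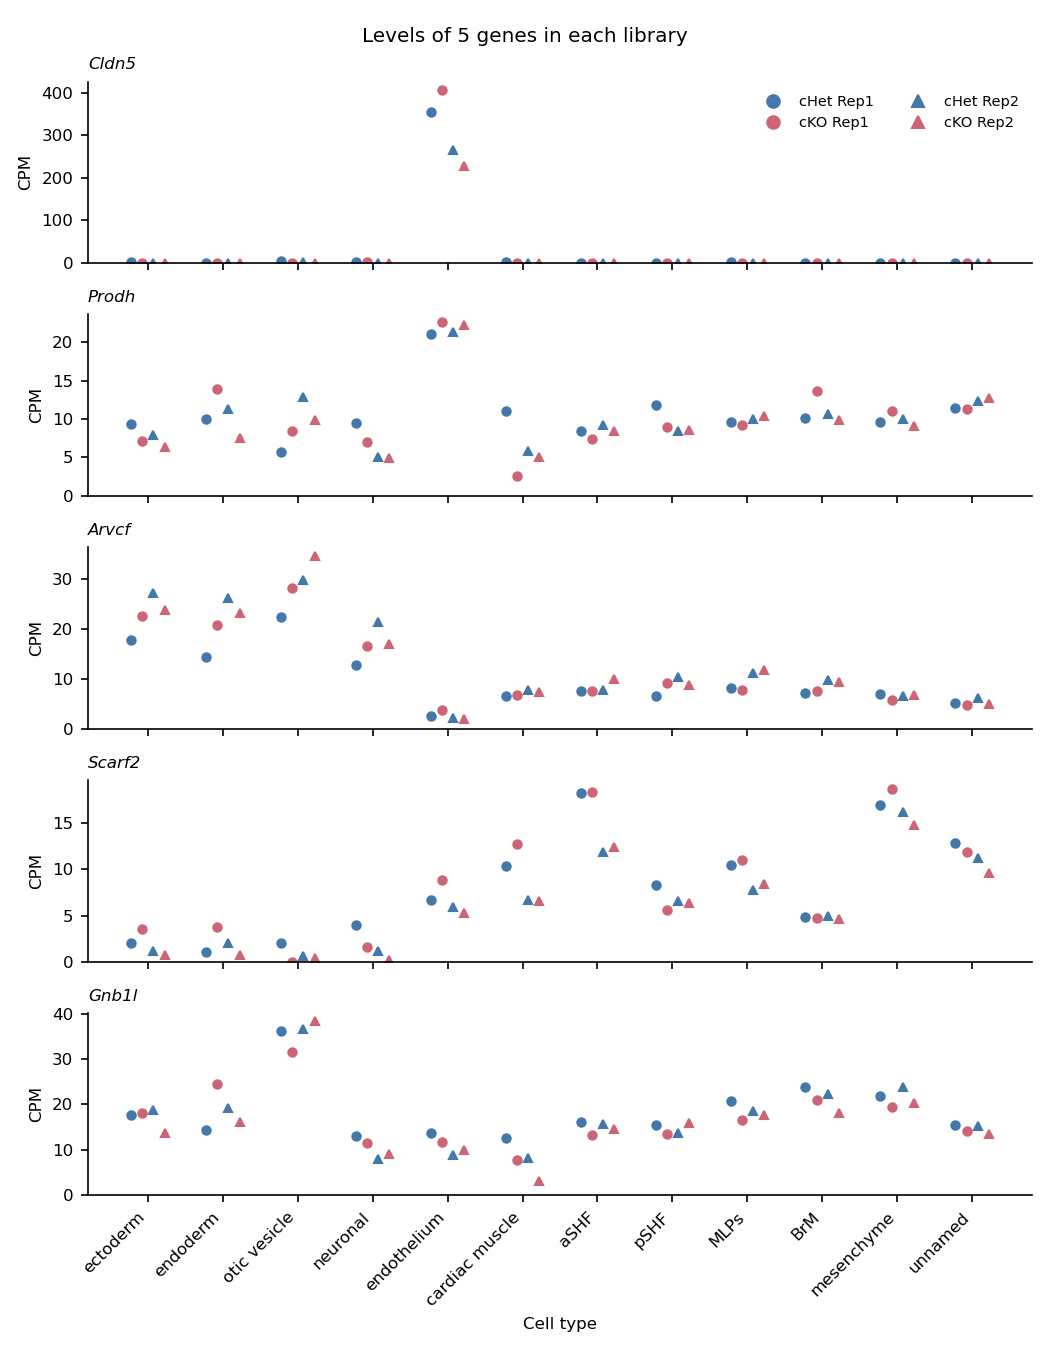
Levels in CPM (vertical axis, starting at 0) of *Cldn5*, *Prodh*, *Arvcf*, *Scarf2* and *Gnb1l* in each library (colour: genotype; shape: replicate) of 11 named cell types and the pooled unnamed cells (horizontal axis). *Cldn5* and *Prodh* are highest in endothelium, *Arvcf* in epithelial types, *Scarf2* in mesenchyme and the aSHF, and *Gnb1l* in the otic vesicle, in all 4 libraries.

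The other genes of this group were broad or close to absent. *Crkl*, a signalling adapter of the CRK family, had means of 36.5 CPM in endothelium to 49.9 in the BrM, and *Dgcr2*, a transmembrane protein with a lectin domain, 28.5 in cardiac muscle to 47.7 in mesenchyme, with 48.8 in the unnamed cells. Under 3 CPM in every library were the Nogo receptor *Rtn4r* (highest mean 1.40, in the otic vesicle), the amino acid carrier family member *Slc7a4* (1.16, in ectoderm), the platelet glycoprotein *Gp1bb* (0.906, in endoderm), the coagulation inhibitor *Serpind1* (0.472, in endoderm, from 3 UMIs in cKO Rep1, whose endoderm also held 326.8 CPM of hepatoblast markers, and 0 in the other libraries) and the ATP receptor *P2rx6* (0.334, in endoderm). *Tssk2*, a kinase of spermatids, had 0 UMIs in all 4 libraries, where 3 counts would have been 0.0142 to 0.0241 CPM. Of the remaining genes, *Dgcr6* ran from 43.7 CPM in endothelium to 82.7 in the otic vesicle. *Gnb1l*, a WD-repeat protein, was at 36.1 and 31.5 CPM in the otic vesicle of cHet and cKO in Rep1 and at 36.7 and 38.3 in Rep2. Its next highest type was mesenchyme, with a mean of 21.3, and its lowest was cardiac muscle, with 7.83, and no library of another type reached the otic vesicle values (highest 24.6, in cKO Rep1 endoderm).

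Within each head-to-head pair with both genes measured, the type with the highest mean differed, although for most of the broad genes neighbouring types overlapped. How often unrelated genes differ in this way was not tested. *Tango2* was highest in cardiac muscle and lowest in the pSHF, whereas *Arvcf*, across 79 bases, was highest in the otic vesicle and lowest in endothelium. *Ranbp1* and *Trmt2a* were highest in the pSHF and in endoderm, and both lowest in cardiac muscle. *Dgcr2* was at 34.1 to 59.2 CPM over all cells of the 4 libraries, while its partner *Tssk2* was at 0. *Cdc45* and *Ufd1* shared cardiac muscle as lowest type and differed in the highest, the pSHF and the otic vesicle. *Mrpl40* and *Hira* differed in both, as did *Pi4ka* and *Snap29*.

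Cell cycle phase was a further axis along which the orthologs differed. Phases were called once over the cells of all libraries together, from lists of S and G2/M genes without *Cdc45*, a list gene that was removed. They rank cells by those lists and do not by themselves show cycling. Of the cells kept, 29.6 to 35.2% were called S, 60.0 to 65.7% G2/M and 4.6 to 5.9% G1, and G1 cells had fewer UMIs (medians of 13117 to 15994, against 18353 to 24633.5 in G2/M). In S cells *Cdc45* had 39.7 and 41.3 CPM in cHet and cKO of Rep1 and 67.8 and 63.7 in those of Rep2. In the same order of libraries it had 23.3, 23.5, 36.1 and 33.9 CPM in G2/M cells, and 5.95, 4.52, 6.76 and 6.93 in G1 cells. With 5 CPM added to each level, the S cells were 1.58- to 1.77-fold above the G2/M cells and 4.09- to 6.19-fold above the G1 cells in every library. *Cdc45* was the 1 ortholog at least 1.5-fold higher in S than in G2/M in every library after adding 5 CPM, against 0.308% of all genes tested. Within single types S exceeded G2/M in 43 of 44 pairs of type and library.

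Highest in S in all 4 libraries were 9 of the 33 (*Cdc45*, *Hira*, *Dgcr8*, *Trmt2a*, *Ranbp1*, *Mrpl40*, *Klhl22*, *Dgcr6* and *Gnb1l*), against 7.2% of all genes tested. That share includes many genes of lower level, and no share over genes of like level was computed. Besides *Cdc45* the differences were smaller. In that order *Dgcr8* had 51.9, 54.4, 84.2 and 79.7 CPM in S and 41.9, 42.8, 58.4 and 54.8 in G2/M. With 5 CPM added, *Ranbp1* was 1.04- to 1.08-fold higher in S than in G2/M and 1.68- to 1.71-fold higher than in G1. Within types S exceeded G2/M in 42 of 44 pairs for *Dgcr8* and in 39 for *Ranbp1*, whose ratios with 5 CPM added ran from 0.875 to 1.21. Such pairs, here and for *Cdc45*, are not independent, and no share over all genes was counted. Highest in G1 in all 4 libraries were 8 (*Slc25a1*, *Lztr1*, *Snap29*, *Pi4ka*, *Tango2*, *Arvcf*, *Cldn5* and *Slc7a4*), against 28.8% of all genes tested, with *Tango2* at 12.6 to 16.6 CPM in G1 and 9.24 to 11.5 in S. Levels in G1 were not compared within types, and the part of cell type make-up in the G1 values was not tested.

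**Figure D3:**
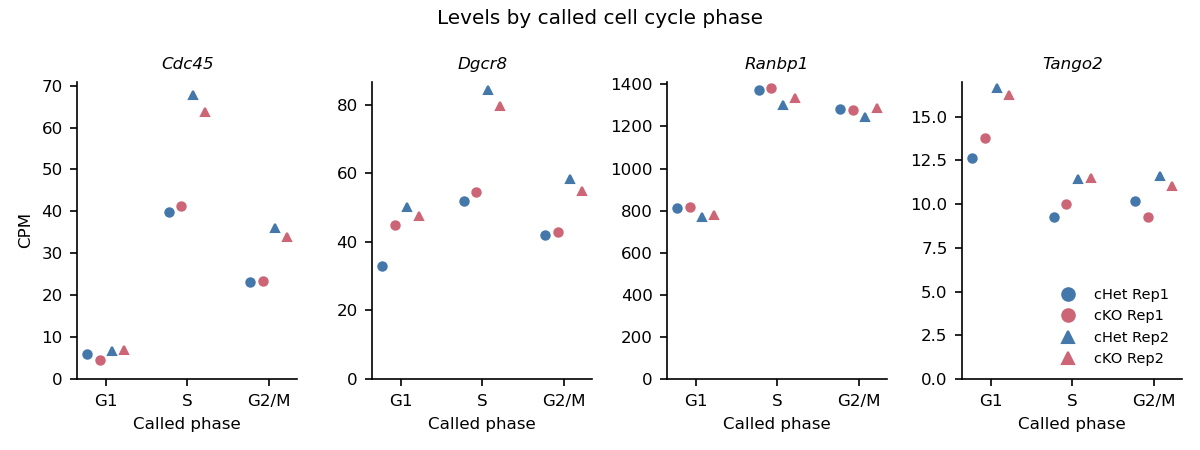
Levels in CPM (vertical axes, starting at 0) of *Cdc45*, *Dgcr8*, *Ranbp1* and *Tango2* in cells called G1, S or G2/M (horizontal axes), 1 point per library (colour: genotype; shape: replicate). *Cdc45*, *Dgcr8* and *Ranbp1* peak in S in all 4 libraries, and *Tango2* in G1.

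The comparison of cKO with cHet asked whether loss of the second *Kmt2d* copy altered the orthologs in a lineage already short of a *Tbx1* copy. Counts were summed per library and cell type and fitted by edgeR's quasi-likelihood test with the replicate as a block, and p-values were adjusted by Benjamini-Hochberg over all genes tested in that type. None of the orthologs passed an adjusted p of 0.05 in any of the 13 groups of cells. Over all cells 32 were tested, 0 were called, as were 0% of the 20126 genes, and 1 had an unadjusted p under 0.05, against 1139 of all genes. The fitted log2 fold changes (cKO over cHet) ran from -0.47 for *Gp1bb* to 0.59 for *Serpind1*, both from few UMIs. By replicate, *Gp1bb* was at -1.68 in Rep1 and 0.58 in Rep2, and *Serpind1* at -0.02 and 1.34. In cHet Rep1, 5 megakaryocyte markers summed to 80.3 CPM in endothelium (3.3 to 6.2 in the other libraries) and to 50.6 in mesenchyme (0.1 to 0.3), and their part in the value of *Gp1bb* was not tested. For 28 of the 32 the 95% interval excluded a 2-fold change in either direction, and for 25 it excluded a 1.5-fold change. The share of all genes with such intervals was not counted, and the intervals rest on 2 libraries per genotype. In sums over all cells, fewer cells of a type and less RNA per cell cannot be told apart.

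**Figure D4:**
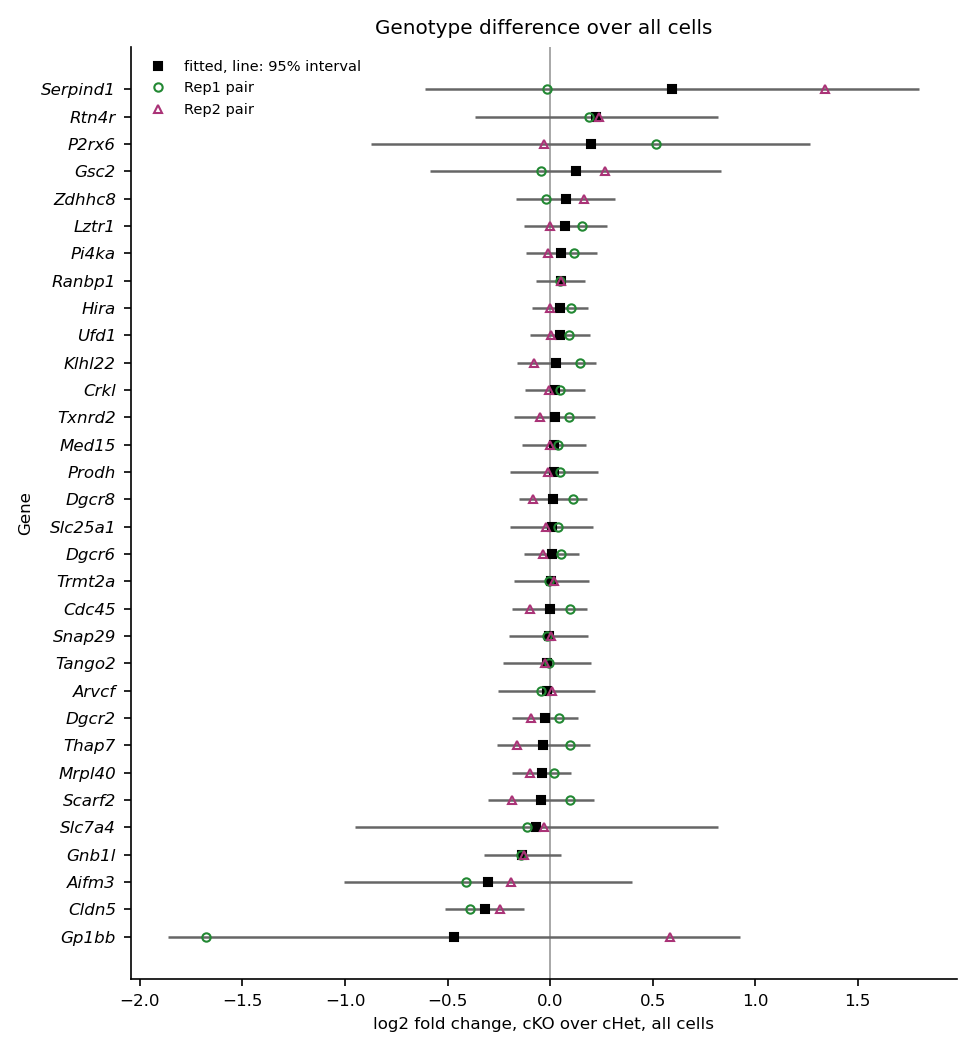
Log2 fold change of cKO over cHet over all cells kept (horizontal axis) for the 32 tested orthologs (vertical axis); squares are edgeR's fitted values with 95% intervals as lines, circles the Rep1 pair and triangles the Rep2 pair. Most intervals are narrow and span 0, the wide ones belong to genes of few UMIs, and the interval of *Cldn5* lies below 0.

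The gene with the smallest unadjusted p over all cells was *Cldn5*, at 27.3 and 14.7 CPM in cHet Rep1 and Rep2 and 20.2 and 12.3 in cKO. Its log2 fold change was -0.32 (SE 0.080, 95% interval -0.51 to -0.13), with an unadjusted p of 0.00626 and an adjusted p of 0.675 by edgeR. The share of endothelium among the cells kept was 7.31% in cHet Rep1 and 4.29% in cKO Rep1, and 5.61% and 5.56% in Rep2. Within endothelium the log2 fold change of *Cldn5* was -0.01 (SE 0.074, 95% interval -0.16 to 0.14), with 0.20 in the Rep1 pair and -0.22 in the Rep2 pair. Over all cells the Rep1 pair gave -0.39 and the Rep2 pair -0.24. Endothelium held 11854 of the 12086 UMIs of *Cldn5*, and the part of its cell share in these values was not tested. In fits without the replicate block, the value over all cells was 0.37 when cHet Rep1 was left out and 0.05 when cKO Rep2 was left out.

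Within cell types 23 to 29 orthologs were tested, and none of the 293 fits was called by edgeR, or by DESeq2. The share of all genes called was 0.685% in the aSHF, 0.83% in the pSHF, 0.484% in the MLPs, 1.09% in the BrM, 0.726% in mesenchyme, 0.531% in cardiac muscle and 0.317% in endothelium. It was 0.00785% in ectoderm, 0.13% in endoderm, 0.648% in the otic vesicle, 0.047% in neuronal cells and 1.07% in the unnamed cells. A count of 0 among 23 to 29 genes does not stand apart from shares of this size. Of the 293 fits, 9 had an unadjusted p under 0.05, 269 had a log2 fold change within 0.25 of 0, and in 283 the 95% interval excluded a 2-fold change. Of all genes tested, 3.74 to 10.1% by type had an unadjusted p under 0.05, and 72.7 to 84% lay within 0.25. The share of all genes whose interval excluded a 2-fold change was not counted. The median log2 fold change of the orthologs was -0.0585 in the pSHF to 0.0675 in neuronal cells, while that of all genes tested was -0.00967 to 0.00604. The share of orthologs with the same sign in both replicates was 39.1 to 58.3% by type, against 48.1 to 54.2% of all genes.

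**Figure D5:**
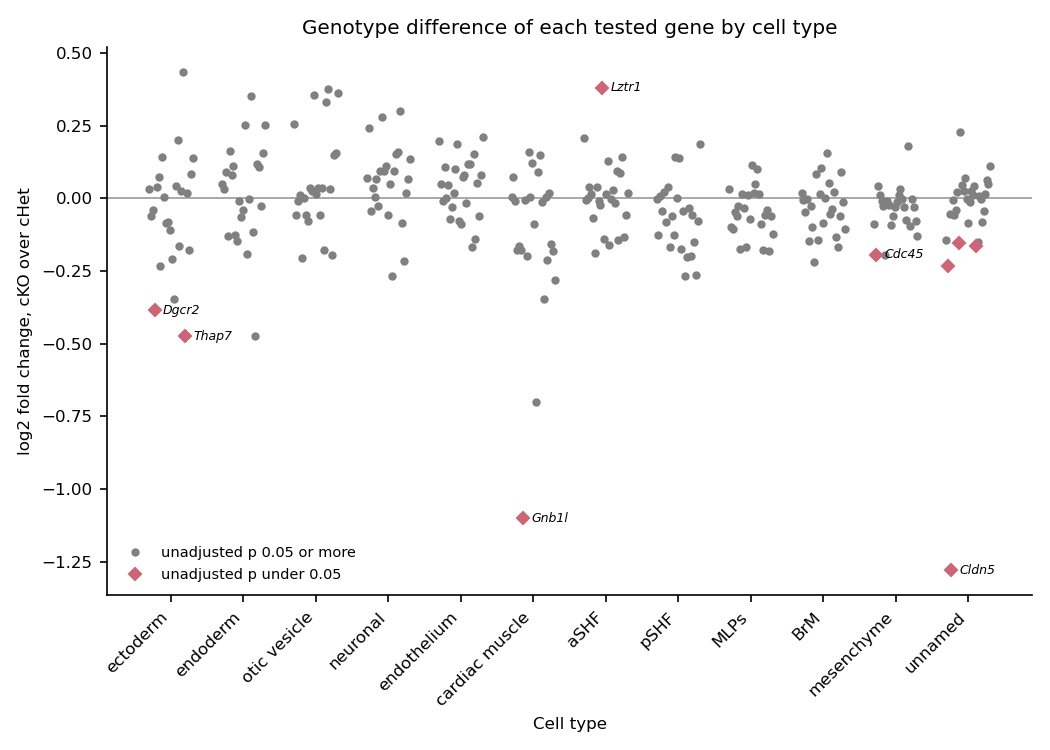
Log2 fold change of cKO over cHet (vertical axis) of each tested ortholog in each cell type (horizontal axis, points spread sideways for legibility); red diamonds have an unadjusted p under 0.05 and grey points do not, and none passed the adjusted threshold. Of the 293 points 269 lie within 0.25 of 0, with *Gnb1l* in cardiac muscle (-1.10) and *Cldn5* in the unnamed cells (-1.28) farthest out.

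The smallest adjusted p of any ortholog in a type was that of *Gnb1l* in cardiac muscle. It was measured there at 12.5 and 8.23 CPM in cHet Rep1 and Rep2 and at 7.62 and 2.98 in cKO, from 36, 44, 9 and 14 UMIs. The log2 fold change was -1.10 (SE 0.40, 95% interval -1.89 to -0.31), with an unadjusted p of 0.00614 and an adjusted p of 0.374 by edgeR. Both cKO values were below both cHet values, but the cKO Rep1 library gave 44 cells, and with cells thinned to 5000 UMIs the value was -0.46. In the same cardiac muscle libraries the 6 epithelial markers summed to 291.8 CPM in cHet and 167.7 in cKO of Rep1 and to 249.7 and 209.3 in those of Rep2. The 7 neuronal markers went the other way, at 6.2 and 29.6 and at 3.0 and 6.2. Their part in the value of *Gnb1l* was not tested. Over all cells *Gnb1l* was at 17.4 and 16.9 CPM in cHet and 15.3 and 15.3 in cKO, a log2 fold change of -0.14 that was not called (adjusted p = 0.993 by edgeR). In the 12 groups of cells it was lower in cKO in both replicates in 6, against 0 to 6 for the other orthologs, and in 4 of the 6 (BrM, MLPs, aSHF and unnamed cells) its value turned positive when some library was left out, at most to 0.08. Fits without a library have no replicate block, here and below, so the difference between the replicates enters their values.

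Besides *Gnb1l* in cardiac muscle, the values below an unadjusted p of 0.05 in named types were those of *Lztr1*, *Cdc45*, *Dgcr2* and *Thap7*. *Lztr1* was at 11.7 and 14.9 CPM in cHet Rep1 and Rep2 of the aSHF and at 15.9 and 18.6 in cKO, a log2 fold change of 0.38 (SE 0.16, adjusted p = 0.608 by edgeR). Its level was higher in the cKO library of each replicate. In the same aSHF libraries the 6 epithelial markers summed to 176.0 CPM in cHet and 247.1 in cKO of Rep1 and to 138.5 and 168.0 in those of Rep2, and the 6 pSHF markers to 68.7 and 119.9 and to 107.2 and 119.1. The 8 cardiac muscle markers went the other way, at 163.0 and 120.6 and at 532.6 and 452.8. The part of these lists in the value of *Lztr1* was not tested. *Cdc45* in mesenchyme was at 32.1 and 46.7 CPM in cHet and 28.1 and 40.4 in cKO, -0.19 (SE 0.082, adjusted p = 0.541 by edgeR), and in both genotypes the Rep2 library was above the Rep1 library. Its log2 fold change ran from -0.31 to -0.08 when single libraries were left out. In ectoderm *Dgcr2* was at 34.6 and 62.1 CPM in cHet and 23.7 and 49.8 in cKO (-0.39, SE 0.13), and *Thap7* at 16 and 21.8 against 11.4 and 15.6 (-0.47, SE 0.19). Without single libraries *Dgcr2* ran from -0.81 to -0.08 there and *Thap7* from -0.52 to -0.41. Neither had an adjusted p under 0.99 by edgeR in ectoderm, where 1 gene was called in all.

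In the unnamed cells 4 orthologs had an unadjusted p under 0.05, against 1771 of the 17558 genes. *Cldn5* had 38 and 14 UMIs in cHet Rep1 and Rep2 and 11 and 17 in cKO, and its log2 fold change of -1.28 came from the Rep1 pair (-2.39, against 0.24 in Rep2). The 8 endothelial markers summed to 28.8 and 29.0 CPM in the unnamed cells of cHet and cKO in Rep1, where *Cldn5* differed, and to 40.8 and 37.1 in Rep2. *Gnb1l* (-0.15), *Scarf2* (-0.17) and *Arvcf* (-0.23) were lower in cKO in both replicates, with adjusted p of 0.452, 0.464 and 0.468 by edgeR. When single libraries were left out, the values ran from -0.35 to 0.05 for *Gnb1l*, -0.49 to 0.13 for *Scarf2* and -0.35 to -0.11 for *Arvcf*.

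The remaining genes among the 3 smallest p-values of a type had unadjusted p of 0.05 or more. They included *Prodh* in cardiac muscle (-0.70, SE 0.42), which rested on 3 UMIs in cKO Rep1, and *Snap29* there (-0.35, SE 0.25), with 6. *Tango2* in endoderm was at -0.47 (SE 0.32), with -2.06 in Rep1 and 0.21 in Rep2, whereas it was at 0.43 (SE 0.23) in ectoderm. Others were *Med15* in the otic vesicle (0.36, SE 0.18), *Hira* in the pSHF (-0.17, SE 0.086), *Klhl22* in neuronal cells (0.28, SE 0.16), *Dgcr6* in the otic vesicle (-0.21, SE 0.13) and *Txnrd2* in the pSHF (-0.27, SE 0.18). *Slc25a1* and *Pi4ka* in endoderm (0.35 and 0.25), *Zdhhc8* in endothelium (0.21) and *Serpind1* over all cells were further ones. *Slc25a1* in endoderm was at 0.59 in Rep1 and 0.16 in Rep2, and ran from -0.26 to 1.04 when single libraries were left out. Beside the endoderm values, 5 hepatoblast markers (Afp, Alb, Apoa1, Ttr and Apob) summed to 326.8 CPM in endoderm of cKO Rep1, against 1.4 to 11.1 in the other 3 libraries. Beside the pSHF values, the 8 cardiac muscle markers summed in pSHF to 250.5 CPM in cHet and 616.8 in cKO of Rep1, and to 355.2 and 517.2 in those of Rep2. In the otic vesicle the 6 mesenchyme markers summed to 122.2 CPM in cHet Rep1 against 10.9 to 23.2 in the other libraries, and the 6 BrM markers to 33.3 against 2.1 to 8.5, with cKO below cHet in both replicates. In neuronal cells the 6 mesenchyme markers summed to 248.1 CPM in cHet and 114.6 in cKO of Rep1 and to 49.2 and 46.2 in those of Rep2. The 7 endoderm markers there summed to 16.1 and 6.3 and to 22.3 and 0.8. The 6 BrM markers fell in Rep1 (46.9 and 36.1) and rose in Rep2 (4.6 and 16.8). The part of these marker lists in the values was not tested.

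The rest of that list had values of at most 0.37 in size, in both directions. *Gnb1l* was at -0.22 in the BrM, -0.17 in the MLPs, -0.19 in the aSHF and -0.19 in mesenchyme. *Tango2* was at 0.18 in mesenchyme, 0.30 in neuronal cells and 0.37 in the otic vesicle. *Lztr1*, at 0.38 in the aSHF, was at -0.17 in the MLPs and 0.19 in endothelium, and *Cdc45*, at -0.19 in mesenchyme, was at 0.24 in neuronal cells. *Dgcr2* and *Klhl22* were both at -0.15 in the BrM, *Txnrd2* at -0.18 in the MLPs, *Snap29* at -0.17 in endothelium, and *Med15* at -0.14 in the aSHF and 0.14 in the pSHF. Of the 36 values that are among the 3 smallest p-values of a cell type, 11 turned in direction when some library was left out. They included *Dgcr6* in the otic vesicle (-0.48 to 0.10), *Txnrd2* in the pSHF (-0.63 to 0.08) and *Snap29* in cardiac muscle (-1.81 to 0.16). These fits have no replicate block, so the difference between the replicates enters them, and a turn does not separate it from genotype. Rep2 over Rep1, in that order, the log2 fold changes were -0.55, -0.64 and 0.89. By replicate pair the genotype values kept their sign, at -0.19 and -0.22, -0.36 and -0.19, and -1.45 and -0.05.

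Whether the response differed between types was tested by all type-by-genotype terms together. None of the 30 orthologs tested was called, against 0.639% of the 16734 genes, and 1, *Cldn5*, had an unadjusted p under 0.05 (adjusted p = 0.290 by edgeR's quasi-likelihood test), against 6.43% of all genes.

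Partners of the orthologs were also tested, as 40 genes in 7 lists: subunits of the replicative helicase for *Cdc45*, histone H3.3 chaperones for *Hira*, microRNA processing factors for *Dgcr8*, the Ran cycle for *Ranbp1*, the p97 complex for *Ufd1*, CRK signalling for *Crkl*, and CUL3 with RAS proteins for *Lztr1* and *Klhl22*. None was called by edgeR over all cells, where 0 of the 40 had an unadjusted p under 0.05, or in any of 480 fits within types, where 8 had one. Of all genes tested, 5.66% had one over all cells and 3.74 to 10.1% by type. List medians of the log2 fold change over types lay between -0.133 and 0.157.

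More of the orthologs were called between the replicates than between the genotypes. Between Rep2 and Rep1 over all cells, 12 of the 32 passed an adjusted p of 0.05 by edgeR, against 49.1% of all genes tested. In Rep2 the 3 that rose were *Dgcr2* (log2 fold change 0.43), *Crkl* (0.37) and *Cdc45* (0.34), and 9 fell, among them *Serpind1* (-1.98), *Cldn5* (-1.12), *Slc25a1* (-0.81), *Scarf2* (-0.63) and *Dgcr6* (-0.61). This split depended on the scaling. With counts scaled to total UMIs, the scale of the CPM levels, 16 were called higher and 5 lower in Rep2 by edgeR, against 60.4% of all genes tested. The median log2 fold change of all genes tested was then 0.306, against -0.00383 before, and 8 of the 12 orthologs were called in the same direction, which were the 8 genes just named. The 4 others called lower were near 0 there, such as *Gnb1l* (-0.02, against -0.33) and *Prodh* (0.01, against -0.30), and *Hira* (0.35) and *Dgcr8* (0.50) were called higher. Kit, embryo pool and the Cell Ranger version in the file headers (7.0.1 in Rep1, 8.0.1 in Rep2) changed together between the replicates, so they cannot be told apart.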

How the data were processed

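Cells of 4 libraries were counted on the 10x 3′ assay. The authors deposited whole-number UMI counts per gene and barcode, not normalized, made with Cell Ranger (8.0.1 per the submitters' processing notes; the file headers name 7.0.1 for Rep1 and 8.0.1 for Rep2) on mm10. Barcodes with at least 3000 genes, at most 10% mitochondrial and 5% hemoglobin UMIs were kept. Scrublet's automatic threshold marked 0.08 to 2.012% of barcodes, so the cutoff was set at the score of the share expected for the kit (3.9 to 5.33%), which with ties marked 4.03 to 5.78% of barcodes with 3000 genes for removal. Free RNA was not corrected. Components were shifted per soft cluster to align the replicates, and cells were clustered (scanpy 1.11.5; 2000 variable genes without the orthologs, 30 components, 20 neighbours, Leiden resolution 0.8) and named where at least 3 markers were found in 10% of a cluster's cells and 2-fold above the rest with 5 CPM added.

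UMIs summed per library and type were fitted with edgeR 4.0.16 (TMM, filterByExpr, replicate as a block) in R 4.3.3. Deviations of same-numbered libraries from their group means correlated at 0.65 to 0.845, and the labels give a kit per replicate number, so the numbers pair the libraries. Library pools are the replicates (n = 2); the limit given for a count of 0 covers counting error only. Alternatives were no block, DESeq2 1.42.0, its size factors, no filter, thinning to 5000 UMIs, resolution 1.2, 5% mitochondrial UMIs and leaving out each library. Phases used the lists of Seurat 5.3.0. All orthologs are named. Those with the 3 smallest p-values of a type or a type-restricted level have their values, and partner genes would be named where called. The orthologs and the lists were chosen with earlier results of these data known. The fitting code was tested on simulated data.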

Additional observations from a re-analysis of the deposited data

How the results depend on the processing

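The count of orthologs called, cKO against cHet, was 0 in each of the 13 groups of cells under each of the 11 alternatives, so without the replicate block it was 0 as well. Without the block 0 of all genes were called in each group, and with single libraries left out 0 to 24 by group, so the 0 of these fits says nothing about stability. *Cldn5* was the 1 type-restricted ortholog at resolution 1.2 and after thinning too. Counts over all genes, 0 to 187 by group as reported, moved more: DESeq2 called 0 to 83 by group, DESeq2 size factors in edgeR 0 to 259, no filter on low counts 42 to 563, thinning 0 to 299, resolution 1.2 0 to 220 and 5% mitochondrial UMIs 0 to 158.

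Median log2 fold changes of the orthologs stayed near 0, but some moved beyond the spread of the 2 replicate medians. That spread rests on 2 values and is small where they are close, as in ectoderm (-0.0360 and -0.0467) and MLPs (-0.0446 and -0.0508). In endothelium (0.149 and -0.0486) it is wide, so the moves listed do not rank the types by sensitivity. Without the replicate block the ectoderm median was -0.0377 (with it -0.0188). DESeq2 gave -0.0416 in ectoderm, -0.0189 in mesenchyme and -0.0451 in MLPs. No filter on low counts gave -0.0510 in ectoderm, -0.0181 in mesenchyme, -0.0440 in MLPs and 0.0188 in unnamed cells. Thinning gave -0.0465 in the aSHF, -0.0962 in BrM, 0.0112 in ectoderm, -0.0722 in MLPs, 0.0614 in the otic vesicle and -0.0911 in the pSHF. Resolution 1.2 gave -0.0413 in MLPs and -0.0922 in the pSHF, and 5% mitochondrial UMIs -0.000913 in ectoderm and -0.0426 in MLPs. The cause was not tested.

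Leaving out 1 library leaves a genotype with 1 kit, so these fits have no block, the lone library is assumed to vary like the others, and the kit difference enters the genotype difference. The medians then ranged from -0.0429 to 0.0325 over all cells, -0.0885 to 0.0817 in the aSHF, -0.0844 to 0.0348 in BrM, -0.134 to 0.000308 in cardiac muscle, -0.0867 to -0.0431 in ectoderm, -0.111 to 0.0530 in endoderm, -0.0686 to 0.144 in endothelium, -0.135 to 0.000107 in mesenchyme, -0.0958 to -0.0212 in MLPs, 0.0152 to 0.125 in neuronal cells, 0.0656 to 0.116 in the otic vesicle, -0.0989 to -0.0135 in the pSHF and -0.0315 to 0.0106 in unnamed cells. *Cldn5* over all cells ranged from -0.96 to 0.37 and *Gnb1l* in cardiac muscle from -1.86 to -0.26. Of the single-gene log2 fold changes, none of them called, 26 of 32 over all cells and 11 of 36 within types turned in direction without some library. Between Rep2 and Rep1 over all cells, 21 orthologs were called with counts scaled to total UMIs and 13 with DESeq2 size factors in edgeR (12 with TMM), alternatives chosen after seeing the data. Depth limits the 8 genes under 3 CPM, and cardiac muscle of cKO Rep1 held 44 cells.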
